A study of Homo sapiens with 6 samples.

Results

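The 37 genes described here encode the aminoacyl-tRNA synthetases, the enzymes that load amino acids onto their transfer RNAs. They were taken by gene symbol, in a choice made with earlier results of these data known. Every row of the expression table whose symbol is that of a synthetase was included. Such symbols are 1 letter followed by ARS1 or ARS2, together with EPRS1, FARSA and FARSB. The synthetases make up 37 of 14788 genes in the table. Of these, 18 encode cytosolic enzymes, 17 encode mitochondrial enzymes, and 2 (GARS1 and KARS1) encode enzymes of both compartments. All 37 passed the filter on low values, which kept 13765 genes.

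Each synthetase recognises 1 amino acid and the transfer RNAs that read its codons, and couples them at the cost of ATP. Human cells carry separate nuclear genes for most cytosolic and mitochondrial enzymes, and the mitochondrial ones serve the few proteins encoded by mitochondrial DNA. Several cytosolic enzymes sit together in the multisynthetase complex, held by the AIMP scaffold proteins. Uncharged transfer RNA activates the kinase GCN2 (EIF2AK4), which phosphorylates eIF2 alpha and raises translation of the transcription factor ATF4, and many cytosolic synthetase genes are known ATF4 targets.

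The cells were CAL51, an established human line from a triple-negative breast carcinoma, analysed by bulk sequencing of polyadenylated RNA. TREX1, the main cytosolic 3′ to 5′ DNA exonuclease, had been targeted by lentiviral CRISPR with 1 of 2 guide RNAs, giving the groups KO-1 and KO-2, which were compared with a control that the labels name as CAL51 control and describe no further. Each group had 2 libraries, no drug treatment is named for any of them, and the labels do not say whether its libraries came from separate cultures, so the spread that p-values measure here, the one between libraries, may be technical. The deposited notes mention multiple knockout clones without saying which libraries they are, so a difference between KO-1 and KO-2 cannot be told apart from one between clones. TREX1 itself was not analysed here, so the knockout labels were not checked against their target.

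Reads assigned to genes in the table numbered 22941234 and 25785055 in the control libraries, 16802681 and 18440036 in KO-1, and 13222933 and 20154836 in KO-2. The synthetases held between 26 and 77 reads for their least covered gene and a median of 1279 to 2363 reads per library. KO-2 replicate 1 stood apart from the other libraries: its score on the second principal component, which carried 25.1% of the variance, was -33.4, whereas the others lay between 5.18 and 8.94. In it 61 genes were at 0 reads, where the other libraries had 5 to 16 such genes. Among line markers, 5 of 7 tested genes rose in the knockouts (KRT8, KRT18, KRT19, EPCAM and VIM) and ERBB2 fell. CDH1 was not called, with 0.30 (log2; adjusted p = 0.055), and ESR1 and PGR were not analysed here. Of all tested genes, 29.6% were called. Of the markers of leukocytes, endothelium and red cells, 4 of 10 were tested, and CDH5, an endothelial cadherin, fell by 0.40 (log2; adjusted p = 0.030). PTPRC, the leukocyte marker CD45, lay at 3.95 to 4.35 log2 CPM in all 6 libraries. The part of these markers in the results below was not tested.

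Levels are given as log2 CPM, reads of a gene scaled to a common library total, and differences as log2 fold changes with their standard error (SE) from limma, fitted on all genes. A gene is called, and is said to have risen or fallen, where the p-value adjusted over all tested genes was below 0.05. Knockout values are the mean of the KO-1 and KO-2 differences from the control unless a guide is named, and since both guides share the same controls, their 2 differences are not independent. In bulk RNA, fewer cells that express a gene and less of its RNA per cell cannot be told apart.

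Synthetase transcripts moved in both directions with TREX1 targeting. Of the 37 genes, 3 rose (HARS1, VARS2 and WARS2), 9 fell (among them VARS1, FARSA, QARS1, MARS1, CARS2, NARS2, FARS2 and MARS2) and 25 were not called. Those 12 make 32.4% of the synthetases, close to the background, in which 29.6% of all tested genes were called, 14.6% higher and 14.9% lower. Their median log2 fold change was -0.03, against -0.01 for all tested genes, with 17 values above 0 and 20 below. Changes were modest: the median size was 0.110 on the log2 scale, smaller than the 0.195 of all genes. Differences between replicates were smaller too. In the controls their standard deviation across genes was 0.081 for the synthetases and 0.239 for all genes, and the order was the same in KO-1 and KO-2. The smaller median size therefore does not show a weaker response of the synthetases. With the library medians set equal, 13 synthetases were called, 6 higher and 7 lower. The share of all genes called depended on single libraries, and was higher with either KO-2 library left out. The count of synthetases did the same. It was 3 without control replicate 1 or control replicate 2, when 9.34% and 11.03% of all genes were called. It was 6 without KO-1 replicate 1 and 7 without KO-1 replicate 2, beside 18.8% and 18.7% of all genes. It was 19 (51.4%; 5 higher and 14 lower) without KO-2 replicate 1, beside 42.8% of all genes.

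**Figure D1:**
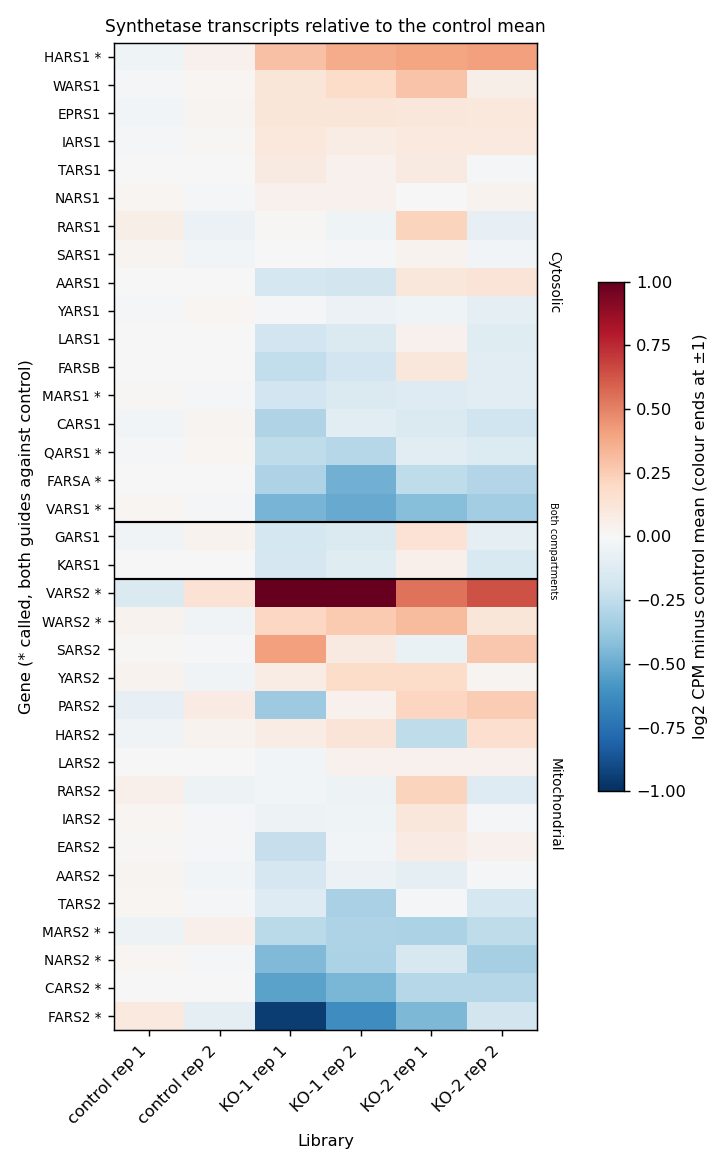
Log2 CPM of 35 of the 37 synthetase genes in the 6 libraries, shown as the difference from the mean of the 2 control libraries, with genes grouped by compartment. VARS2 is the row most above its controls, while VARS1, CARS2, FARSA and FARS2 lie below theirs in all 4 knockout libraries.

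Cytosolic and mitochondrial genes had similar medians. Among the 18 cytosolic genes, 1 rose and 4 fell (27.8% called), with a median log2 fold change of -0.02 and a range of -0.44 to 0.37. Among the 17 mitochondrial genes, 2 rose and 5 fell (41.2% called), with a median of 0.00 and a wider range of -0.55 to 1.00. The mitochondrial genes were also measured less precisely, with a median SE of 0.0834 against 0.0503, and no test of the difference between the compartments was made. Neither GARS1 (-0.07, adjusted p = 0.47) nor KARS1 (-0.10, adjusted p = 0.23) was called, and neither passed an unadjusted p of 0.05. Without KO-2 replicate 1, both were called lower, with -0.12 for GARS1 (adjusted p = 0.015) and -0.15 for KARS1 (adjusted p = 0.0043).

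Summed over all 37 genes, synthetase reads made up 0.521% and 0.518% of the reads in the control libraries. The share was 0.477% and 0.484% in KO-1, and 0.513% and 0.497% in KO-2. Both controls thus lay above all 4 knockout libraries, by a margin that was small for KO-2. Abundant genes dominate this sum, VARS1 among them.

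**Figure D2:**
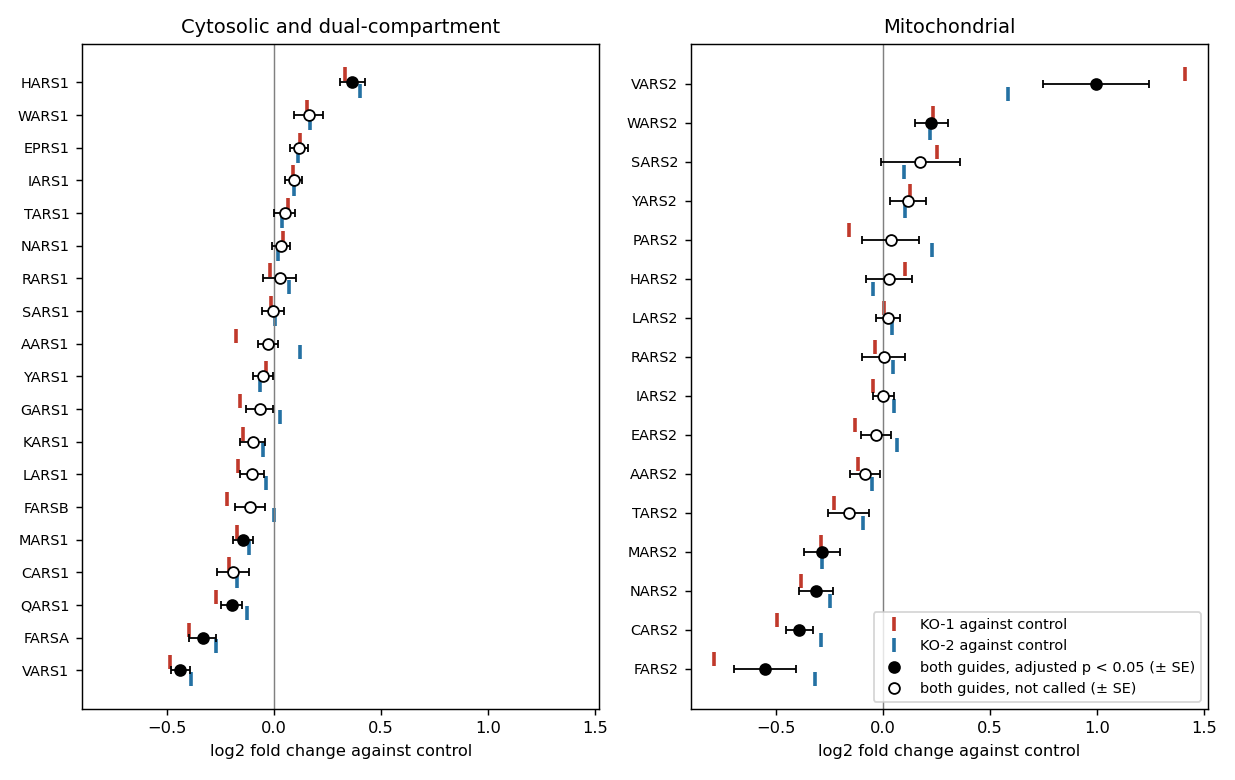
Log2 fold change of 35 synthetase genes against control, in panels for cytosolic with dual-compartment genes and for mitochondrial genes. Circles are the mean of both guides with its SE, filled where called, and ticks are KO-1 and KO-2 alone. VARS2 has the highest value (1.00) and the widest error bar (0.25).

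The lowest adjusted p among the synthetases belonged to VARS1, the cytosolic valyl-tRNA synthetase, encoded on chromosome 6 at 31777518 to 31795752 (GRCh38, minus strand). Its level was 8.64 and 8.61 log2 CPM in the controls, 8.16 and 8.12 in KO-1, and 8.20 and 8.28 in KO-2. All 4 knockout libraries lay below both controls, with no overlap. Its log2 difference was -0.44 ± 0.05 (SE), a fold of 0.74 (adjusted p = 9.7e-05). By guide, it fell by 0.49 in KO-1 (adjusted p = 0.00012) and by 0.39 in KO-2 (adjusted p = 0.0012). This call held under all 14 alternative settings.

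VARS2, the mitochondrial valyl-tRNA synthetase, lies on the same chromosome at 30914238 to 30926459 (plus strand) and moved the other way. It had 0.38 and 0.67 log2 CPM in the controls, 1.77 and 2.10 in KO-1, and 1.07 and 1.16 in KO-2. Both KO-1 libraries were highest, the KO-2 libraries came between, and the groups did not overlap. VARS2 rose by 1.00 ± 0.25 (adjusted p = 0.012), a fold of 2.00, with 1.41 in KO-1 (adjusted p = 0.0041) and 0.59 in KO-2, which was not called (adjusted p = 0.18). These values rest on 26 to 77 reads per library, and 21.99% of its exon bases are shared with GTF2H4 on the same strand, so reads could be split between them. The call was lost when 1 library was left out, with adjusted p of 0.15 and 0.060 for control replicates 1 and 2 and of 0.055 for KO-1 replicate 2.

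HARS1, the cytosolic histidyl-tRNA synthetase, was the cytosolic gene that rose. Its level was 6.25 and 6.34 log2 CPM in the controls, 6.59 and 6.66 in KO-1, and 6.69 and 6.70 in KO-2. Every knockout library lay above both controls. HARS1 rose by 0.37 ± 0.06 (adjusted p = 0.0012), with 0.33 in KO-1 (adjusted p = 0.0043) and 0.40 in KO-2 (adjusted p = 0.0036), and the call held under all 14 alternatives. Its mitochondrial neighbour HARS2 had 5.15 and 5.23 in the controls, 5.27 and 5.32 in KO-1, and 4.94 and 5.36 in KO-2. HARS2 values in the knockouts lay on both sides of the controls, and its difference was 0.03 ± 0.11 (adjusted p = 0.86).

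HARS1 and HARS2 are transcribed away from each other from starts on chromosome 5 that are separated by 84 bases in RefSeq (140691371 to 140691454, GRCh38.p14). The 2 stretches below are shown because 1 short region lies before both a gene that rose and a gene that was not called, and each stretch holds the ETS core letters CCGGAAG, searched on both strands. They are written 5′ to 3′ on the plus strand of chromosome 5, the first at 140691371-140691389 beside the HARS1 start and the second at 140691437-140691454 beside the HARS2 start, with the core or its reverse complement CTTCCGG in capitals.
Nearest HARS1: gaCTTCCGGctatcgagtc
Nearest HARS2: ccggctcctcCCGGAAGt
GENCODE 29 places exon bases of HARS1 at both stretches and of HARS2 at the second, and the exons of the pair share 437 bases on opposite strands. No source used here gives the strand setting of the counting, so reads from the shared bases cannot be assigned with certainty.

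FARSA, the catalytic alpha subunit of cytosolic phenylalanyl-tRNA synthetase (chromosome 19, 12922479 to 12933711), was among the genes that fell. It had 6.70 and 6.71 log2 CPM in the controls, 6.40 and 6.23 in KO-1, and 6.46 and 6.42 in KO-2, all 4 knockout libraries being lower. FARSA fell by 0.33 ± 0.06 (adjusted p = 0.0031), and its adjusted p was 0.054 with either control replicate 1 or control replicate 2 left out. FARSB, which encodes the beta subunit of the same enzyme, had a log2 fold change of -0.11 (adjusted p = 0.26), and KO-2 replicate 1 lay above both controls. Without KO-2 replicate 1, FARSB was called lower, with -0.17 (adjusted p = 0.012). The difference between the subunits was not tested.

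QARS1 and MARS1 encode the glutaminyl- and methionyl-tRNA synthetases, both members of the multisynthetase complex. QARS1 (chromosome 3, 49095932 to 49104757) had 7.59 and 7.62 log2 CPM in the controls, 7.35 and 7.31 in KO-1, and 7.48 and 7.47 in KO-2. The 3 groups did not overlap, with controls highest, KO-2 next and KO-1 lowest. QARS1 fell by 0.20 ± 0.05 (adjusted p = 0.011). MARS1 (chromosome 12, 57488068 to 57516652) had 7.86 and 7.83 in the controls, 7.65 and 7.70 in KO-1, and 7.72 and 7.74 in KO-2. MARS1 fell by 0.14 ± 0.05 (adjusted p = 0.039), the smallest difference among called synthetases. The adjusted p was 0.15 with library medians set equal. MARS1 shares 13.33% of its exon bases with other genes, DDIT3 on the opposite strand among them. Leaving out 1 library ended the QARS1 call for control replicate 1 (0.10), control replicate 2 (0.15) and KO-1 replicate 2 (0.054), and the MARS1 call for both controls (0.30 and 0.19) and both KO-1 libraries (0.13 and 0.089).

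**Figure D3:**
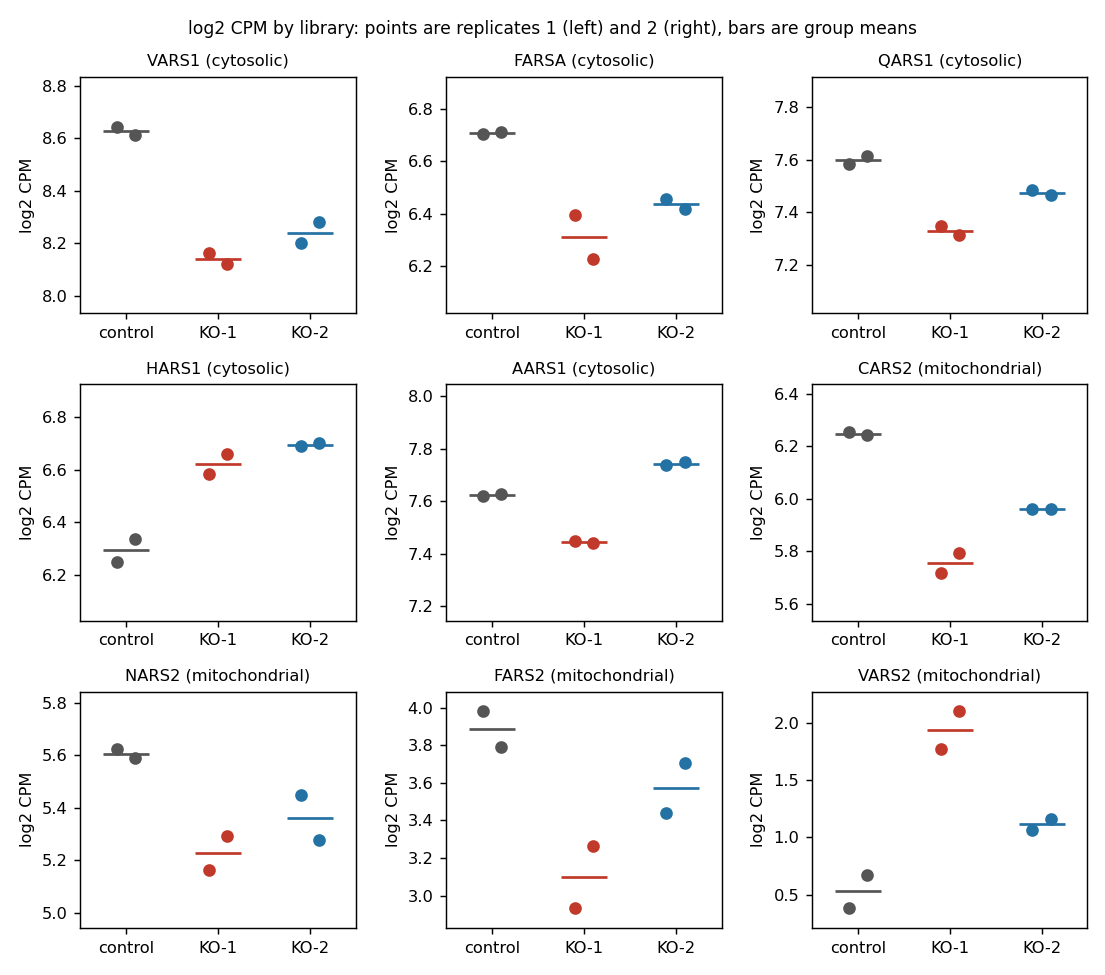
Log2 CPM in each of the 6 libraries for 9 synthetase genes, 1 panel per gene with its own axis, with points for replicates and a line at each group mean. The control points of VARS1, HARS1 and CARS2 are separate from all knockout points, and AARS1 lies below the controls in KO-1 and above them in KO-2.

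The other cytosolic genes were not called for the mean of both guides. EPRS1, the joint glutamyl- and prolyl-tRNA synthetase, lay above both controls in every knockout library, with a log2 fold change of 0.12 (adjusted p = 0.062). WARS1, an interferon-inducible tryptophanyl-tRNA synthetase, had 0.16 (adjusted p = 0.091), IARS1 0.09 (adjusted p = 0.11) and CARS1 -0.19 (adjusted p = 0.080). With the library medians set equal, EPRS1, WARS1 and IARS1 passed the threshold, with differences of 0.16, 0.21 and 0.14. LARS1, the leucyl-tRNA synthetase that also acts as a leucine sensor for mTORC1, had -0.10 (adjusted p = 0.19). Without KO-2 replicate 1, EPRS1 and IARS1 were called higher (0.11 and 0.09, adjusted p = 0.012 and 0.027), and LARS1 and CARS1 lower (-0.14 and -0.20, adjusted p = 0.0058 and 0.019); without KO-2 replicate 2, EPRS1, IARS1 and WARS1 were called higher and CARS1 lower. YARS1 (-0.05), TARS1 (0.05), NARS1 (0.03) and RARS1 (0.03) differed from the control by less.

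SARS1, the seryl-tRNA synthetase, had the largest p-value among cytosolic genes. It had 7.26 and 7.20 log2 CPM in the controls, 7.23 and 7.21 in KO-1, and 7.27 and 7.21 in KO-2. Its groups overlapped, with a difference of -0.00 and a 95% interval of -0.12 to 0.11.

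Mitochondrial CARS2, the cysteinyl-tRNA synthetase (chromosome 13, 110641410 to 110713522), had 6.26 and 6.24 log2 CPM in the controls, 5.72 and 5.79 in KO-1, and 5.96 and 5.96 in KO-2. Its 3 groups were fully separate, with KO-1 lowest. CARS2 fell by 0.39 ± 0.06 (adjusted p = 0.0012), by 0.49 in KO-1 (adjusted p = 0.00067) and by 0.29 in KO-2 (adjusted p = 0.022). Like VARS1 and HARS1, it was called under all 14 alternatives.

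NARS2 and FARS2 encode the mitochondrial asparaginyl- and phenylalanyl-tRNA synthetases, and both fell. NARS2 (chromosome 11, 78435968 to 78574864) had 5.62 and 5.59 log2 CPM in the controls, 5.16 and 5.29 in KO-1, and 5.45 and 5.28 in KO-2, with no overlap between controls and knockouts. NARS2 fell by 0.31 ± 0.08 (adjusted p = 0.014). FARS2 (chromosome 6, 5249934 to 5771583) had 3.98 and 3.79 in the controls, 2.93 and 3.27 in KO-1, and 3.44 and 3.71 in KO-2. FARS2, counted from 125 to 366 reads per library, fell by 0.55 ± 0.14 (adjusted p = 0.015), with the higher KO-2 library just below the lower control. Each of these calls was lost without either control (adjusted p 0.16 and 0.11 for NARS2, 0.20 and 0.071 for FARS2) and without KO-1 replicate 1 (0.063 and 0.058).

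MARS2 and WARS2, the mitochondrial methionyl- and tryptophanyl-tRNA synthetases, changed in opposite directions. MARS2 (chromosome 2, 197705369 to 197708395) had 4.97 and 5.06 log2 CPM in the controls, 4.75 and 4.71 in KO-1, and 4.70 and 4.76 in KO-2. Both guides gave nearly the same level, and MARS2 fell by 0.28 ± 0.08 (adjusted p = 0.025). WARS2 (chromosome 1, 119031216 to 119140672) had 5.62 and 5.54 in the controls, 5.79 and 5.84 in KO-1, and 5.90 and 5.70 in KO-2, and rose by 0.23 ± 0.08 (adjusted p = 0.044). Both calls were lost without either control (adjusted p 0.13 and 0.26 for MARS2, 0.17 and 0.32 for WARS2) and without either KO-1 library (0.064 and 0.079, and 0.099 and 0.14). MARS2 also missed the threshold with library medians set equal or with quantile normalization (adjusted p = 0.051 for each).

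The 10 mitochondrial genes that were not called had log2 fold changes between -0.16 (TARS2) and 0.18 (SARS2). SARS2 was the least precise of these, with a 95% interval of -0.23 to 0.58, and shares 56.98% of its exon bases with other genes. IARS2, the mitochondrial isoleucyl-tRNA synthetase, had 8.21 and 8.17 log2 CPM in the controls, 8.14 and 8.15 in KO-1, and 8.31 and 8.18 in KO-2. RARS2, the arginyl-tRNA synthetase, had 5.28 and 5.18 in the controls, 5.20 and 5.18 in KO-1, and 5.45 and 5.10 in KO-2. In both genes the groups overlapped and the difference was 0.00, with intervals of -0.10 to 0.11 and -0.22 to 0.22. Of the 25 synthetases not called, 24 had intervals that lay within 0.5 of 0 on the log2 scale, SARS2 being the exception.

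Separate cytosolic and mitochondrial genes serve 17 amino acids, and they could be compared amino acid by amino acid. For phenylalanine (FARSA and FARS2) and methionine (MARS1 and MARS2), genes of both compartments fell. For valine, VARS1 fell and VARS2 rose. For cysteine, asparagine and tryptophan the mitochondrial gene was called and the cytosolic one was not, and for histidine it was the cytosolic gene. For glutamine, QARS1 was the gene measured, and mitochondria are known to make glutaminyl-tRNA by amidation of a mischarged precursor. Differences between the 2 genes of an amino acid were not tested.

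The enzymes were also counted by complex and by structural class, without a test. Beside these counts, 29.6% of all tested genes were called, 14.6% higher and 14.9% lower. Of the 8 synthetases of the complex, 2 fell (MARS1 and QARS1) and 6 were not called, with a median log2 fold change of -0.04. Among the 12 other enzymes that act in the cytosol, GARS1 included, there were 1 higher and 2 lower calls (median -0.04). Synthetases form 2 classes with unrelated catalytic folds. With EPRS1, which joins both, left out, 3 of 9 class I enzymes of the cytosol fell (median -0.10), and 1 of 10 class II enzymes rose while 1 fell (median -0.02). Among mitochondrial enzymes, 2 of 9 of class I rose and 2 fell (median 0.00), and 3 of 8 of class II fell (median -0.12).

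By the separation of libraries, without a test, 16 of 37 synthetases (43.2%) had all 4 knockout libraries on 1 side of both controls. In all tested genes the share was 46.3%. The 16 comprised 9 cytosolic genes, 4 above and 5 below, and 7 mitochondrial genes, 2 above and 5 below.

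In KO-1 alone, 12 synthetases were called, 2 higher and 10 lower, beside a background of 29.7% of all genes (14.6% higher and 15.1% lower). These were the genes called for both guides with WARS2 replaced by AARS1. Among cytosolic genes 1 rose and 5 fell (median log2 fold change -0.03), and among mitochondrial genes 1 rose and 5 fell (median -0.11). In KO-2 alone, 4 synthetases were called, HARS1 higher and VARS1, FARSA and CARS2 lower, beside a background of 16.9% (8.73% higher and 8.19% lower). The medians were 0.01 for cytosolic and 0.04 for mitochondrial genes in KO-2. With 1 library left out, the KO-1 count ran from 5 (control replicate 1) through 7 (control replicate 2) and 6 (either KO-1 library) to 21 (either KO-2 library), while the share of all genes called ran from 12.3% to 45.7%. The KO-2 count was 1, 2, 2, 3, 7 and 10 in the order control, KO-1 and KO-2, replicate 1 before 2, while the share of all genes ran from 2.63% to 33.4%. The authors' deposited table gave the same numbers of synthetases at a false discovery rate below 0.05, with 12 in KO-1 and 4 in KO-2, beside 28.98% and 16.7% of all genes in that table.

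Fewer calls in KO-2 do not show a smaller effect, since the difference between the guides has its own test. In KO-2 against KO-1, 1 synthetase was called, AARS1, beside 1.14% of all genes (0.334% higher and 0.806% lower). AARS1, the cytosolic alanyl-tRNA synthetase (chromosome 16, 70252298 to 70289506, minus strand), had 7.62 and 7.63 log2 CPM in the controls, 7.45 and 7.44 in KO-1, and 7.74 and 7.75 in KO-2. The 3 groups did not overlap, with KO-1 below and KO-2 above the controls, and replicates within a group lay close together. The difference between guides was 0.30 ± 0.05 on the log2 scale (adjusted p = 0.027, 95% interval 0.18 to 0.42). Against the control, AARS1 fell by 0.18 in KO-1 (adjusted p = 0.027), and had 0.12 in KO-2 (adjusted p = 0.15), so the mean of both guides was -0.03. In the authors' deposited table, the difference between guides for AARS1 was also 0.30, with a false discovery rate of 0.019. Leaving out control replicate 1 (adjusted p = 0.11) or 2 (0.10), or KO-1 replicate 1 (0.35) or 2 (0.41), ended this call, while the difference stayed between 0.29 and 0.31. The count between guides was 12 without KO-2 replicate 2, when 23.1% of all genes were called, and 2 without KO-2 replicate 1, when 5.33% were.

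AARS1, called between the guides and in KO-1, has a promoter window that holds the ATF4 element. The letters TGATGNAA were searched on both strands in the 250 bases before a RefSeq start. A gene can have several such windows, and it was counted where any of them held the letters. No synthetase called for the mean of both guides had these letters in its window, where a window was at hand. Of 30 synthetases with a window, 4 (13.3%) held these letters: AARS1, GARS1, IARS1 and YARS2. The share was 3.90% of 27052 genes with a window and 2.28% of the 11361 of these that are in the expression table. The 4 stretches are printed to show how the elements compare between the gene that differed between guides and the 3 that did not pass the test, and the latter were added after their values were seen. Each is written 5′ to 3′ on the strand of its gene (GRCh38.p14), with the element or its reverse complement TTNCATCA in capitals.
AARS1, chr16:70289676-70289703, minus strand: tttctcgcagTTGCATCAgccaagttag
GARS1, chr7:30594835-30594862, plus strand: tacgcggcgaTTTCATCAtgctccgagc
IARS1, chr9:92293698-92293720, minus strand: tttcagcgcgTTGCATCAcctcc
YARS2, chr12:32756077-32756104, minus strand: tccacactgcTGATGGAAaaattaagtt
AARS1 and IARS1 carry the same 8 letters, and YARS2 has the element in the opposite orientation. The first base of the element lies at -187 in AARS1, -33 in GARS1, -13 in IARS1 and -197 in YARS2, counted from the start that follows its window. For GARS1 this is an inner start, and the printed stretch lies inside the RefSeq span of the gene, which begins at 30594735. The GARS1 window before that position (30594485 to 30594734) does not hold the letters. In GENCODE, exon of another gene, DDX19B, covers the whole AARS1 stretch. The GARS1 and IARS1 stretches are covered in full by exon of GARS1 and IARS1 themselves. The YARS2 stretch holds no exon bases. A match describes these letters and does not show binding. The log2 fold changes of GARS1 (-0.07), IARS1 (0.09) and YARS2 (0.12) were not called.

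Among the 4 motifs searched, the ETS core CCGGAAG was present in 16 of 30 synthetase windows (53.3%), in 7 of 14 cytosolic and 7 of 14 mitochondrial genes and in both GARS1 and KARS1. Its share was 10.2% of all windows and 18.0% of those of genes in the table. Of the synthetases called for the mean of both guides and with a window, HARS1, CARS2 and MARS2 held it. In CARS2 it lies in the window at 110706117 to 110706366 and not in that at 110706516 to 110706765. These CARS2 windows lie inside the RefSeq span of the gene, which ends at 110713522 on the minus strand. The E-box letters CACGTG were in the windows of 3 synthetases (EARS2, IARS1 and MARS2), a share of 10.0%. This lay above the 7.69% of all windows and below the 11.05% of those of genes in the table. The NRF1 core GCGCATGC was in the windows of 2 (MARS2 and YARS2), a share of 6.67%. It was in 3.15% of all windows and in 5.33% of those of genes in the table. Windows of AARS2, LARS1, VARS1, VARS2 and YARS1, among others, were not analysed here.

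Transcript levels can be compared between genes once divided by exon length. In the controls, the median cytosolic synthetase had 5.33 log2 CPM per kilobase of GENCODE 29 exon, and the median mitochondrial one 3.42. The ranges overlapped, from 2.45 (CARS1) to 6.49 (NARS1) for cytosolic genes and from -2.55 (VARS2) to 6.13 (IARS2) for mitochondrial ones. KARS1 and GARS1, which serve both compartments, lay at 5.78 and 5.82, within the upper range of the cytosolic genes. The medians were 5.06 and 3.39 log2 CPM per kilobase in KO-1, and 5.20 and 3.25 in KO-2. Medians of different groups can rest on different genes, so their differences are not changes of a gene. The median log2 fold change was -0.03 for cytosolic and -0.11 for mitochondrial genes in KO-1, and 0.01 and 0.04 in KO-2. Exon length counts all annotated isoforms, so genes with long untranslated or rarely used exons appear lower on this scale. Exon bases shared with other genes were not removed, and these make up 21.99% of VARS2 and 56.98% of SARS2. The VARS2 level also rests on few reads, 26 to 77 per library.

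**Figure D4:**
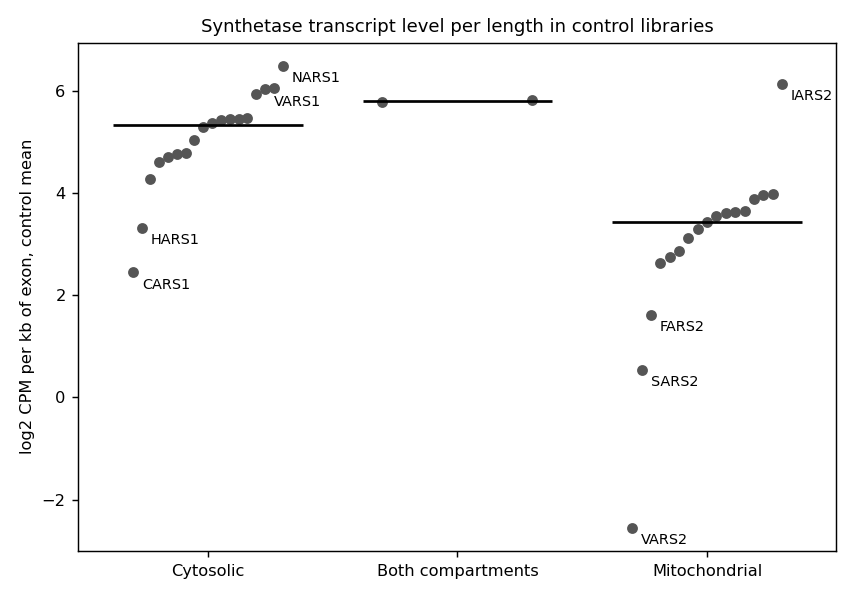
Control level of each synthetase in log2 CPM per kilobase of annotated exon, by compartment, each point being 1 gene as the mean of the 2 control libraries and the line the group median. Cytosolic genes centre on 5.33 and mitochondrial genes on 3.42, with VARS2 lowest at -2.55 and IARS2 among the highest at 6.13.

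Genes that work beside the synthetases were examined as lists, and their counts read against the background of 29.6%. That background is for the full set of libraries. Counts with a library left out belong beside the shares of all genes given above for the same library. Of 8 scaffold, relative and editing genes, 2 fell. YBEY, a mitochondrial RNA endonuclease placed in this list, fell by 0.60 (adjusted p = 0.0041). DTD2, a deacylase of aminoacyl-tRNA, fell by 0.43 (adjusted p = 0.039). The related deacylase DTD1 had -0.28 (adjusted p = 0.072), and the complex scaffolds AIMP1 and AIMP2 had -0.08 and -0.20 (adjusted p = 0.34 and 0.12). None of the 4 genes for mitochondrial glutaminyl-tRNA amidation and tRNA formylation was called by limma, with 1 at an unadjusted p below 0.05. Among them GATB had 0.21 (adjusted p = 0.093) and MTFMT -0.18 (adjusted p = 0.14).

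Of 7 tested cytosolic elongation genes, 3 rose and 1 fell (list median 0.16). EEF2, which drives ribosome translocation, had 10.88 and 10.84 log2 CPM in the controls, 11.17 and 11.13 in KO-1, and 11.15 and 11.14 in KO-2. All 4 knockout libraries lay above the controls, and EEF2 rose by 0.29 ± 0.03 (adjusted p = 0.00026). Its inhibitory kinase EEF2K fell by 0.46 ± 0.08 (adjusted p = 0.0016). EEF1A1, which carries charged transfer RNA to the ribosome, rose by 0.26 ± 0.05 (adjusted p = 0.0021). Of 10 mitochondrial translation genes, MRRF, the ribosome recycling factor, rose by 0.46 (adjusted p = 0.0014), GFM2 fell by 0.22 (adjusted p = 0.031) and 8 were not called (median of the list 0.05).

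In tRNA processing, 4 of 24 genes rose and 2 fell (list median 0.06), and the counts were 1 and 1 without control replicate 1 and 0 and 1 without control replicate 2. TSEN15, a subunit of the tRNA splicing endonuclease, had 5.50 and 5.58 log2 CPM in the controls, 4.88 and 4.82 in KO-1, and 4.99 and 4.99 in KO-2. It was lower in every knockout library and fell by 0.62 ± 0.08 (adjusted p = 0.00027). XPOT, the tRNA export receptor, rose by 0.24 ± 0.05 (adjusted p = 0.0044), and ELAC1, a tRNA 3′ end nuclease, fell by 0.41 (adjusted p = 0.032).

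Of 25 tested genes of the ATF4 and amino acid response, 11 rose and 4 fell (60.0% called), the list median being 0.08. Without control replicate 1 this was 5 and 0, and without control replicate 2, 4 and 1; without KO-2 replicate 1 it was 11 and 4. SESN2, a leucine sensor upstream of mTORC1, had 5.70 and 5.74 log2 CPM in the controls, 6.93 and 6.97 in KO-1, and 6.45 and 6.77 in KO-2. It rose by 1.06 ± 0.08 (adjusted p = 1.5e-05). DDIT4, an inhibitor of mTORC1 signalling, rose by 0.51 (adjusted p = 0.00074), and SLC7A5, a transporter of large neutral amino acids, by 0.34 (adjusted p = 0.00034). The 4 that fell, named after their values were seen, were SLC1A5 (-0.27), PHGDH (-0.24), PSAT1 (-0.23) and CHAC1 (-0.39). Their adjusted p-values were 0.0039, 0.0037, 0.0035 and 0.046. ATF4 itself, also named after its values were seen, rose by 0.16 ± 0.05 (adjusted p = 0.034). ASNS, the asparagine synthetase and a common ATF4 target, had -0.14 (adjusted p = 0.74) at 0.57 to 1.28 log2 CPM. Beside these, the synthetases gave 3 higher and 9 lower, and the difference between the lists was not tested.

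Among the 13 genes of the eIF2 alpha kinases and their regulators, 4 rose and 4 fell (61.5% called), and 1 was called without control replicate 1 or without control replicate 2. The 4 that fell were EIF2B2, EIF2B3, EIF2B4 and EIF2B5, subunits of the nucleotide exchange factor eIF2B, named after their values were seen. EIF2B5, its catalytic subunit, fell by 0.40 (adjusted p = 0.0014), and EIF2B3 by 0.51 (adjusted p = 0.0079). EIF2AK3, which encodes the endoplasmic reticulum kinase PERK, rose by 0.44 (adjusted p = 0.0050). GCN2 (EIF2AK4), the sensor of uncharged transfer RNA, was not called, with 7.00 and 7.02 log2 CPM in the controls, 7.06 and 7.04 in KO-1, and 6.95 and 6.63 in KO-2.

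**Figure D5:**
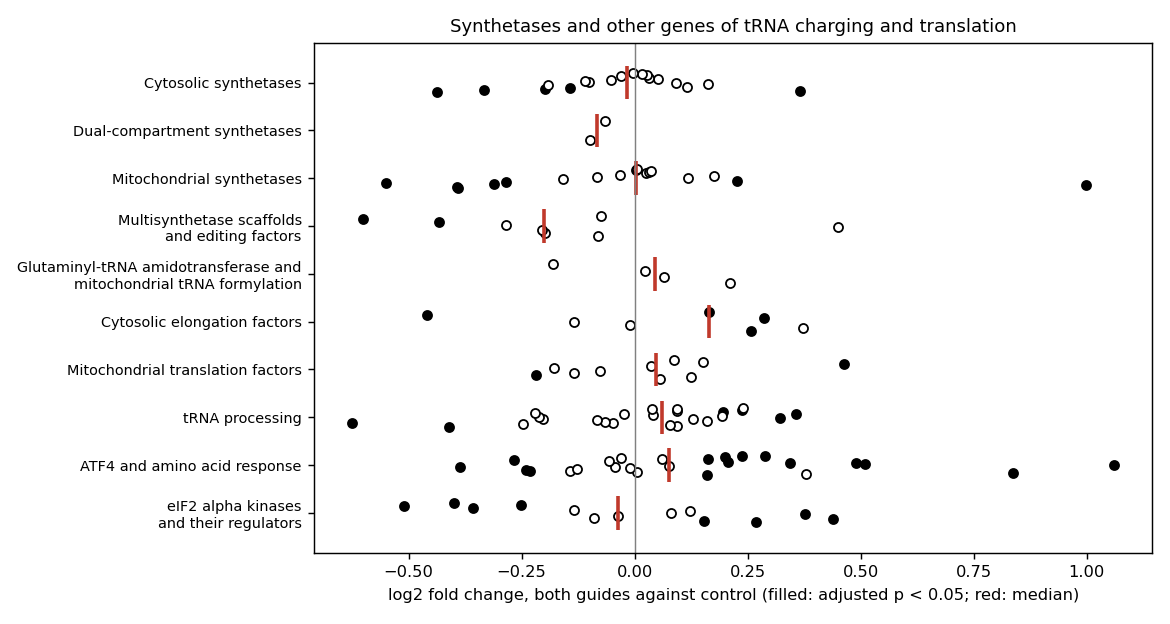
Log2 fold change of each tested gene for the mean of both guides against control, by gene list, 1 point per gene with the list median as a line and called genes marked. The synthetase medians lie at -0.02 (cytosolic) and 0.00 (mitochondrial), and SESN2 has the highest value of the ATF4 list at 1.06.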

How the data were processed

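Polyadenylated RNA of 6 CAL51 libraries was sequenced. Reads went through fastp, STAR 2.7, featureCounts (Subread 2.0) and edgeR on hg38, as far as the submitters' processing notes name tools, and no source used here gives the annotation, strand setting or gene filter. The authors deposited log2 CPM per gene and library, and a table of their own log2 fold changes and false discovery rates (adjusted p-values, from which members were read as a cross-check). The deposited log2 CPM values resolve into whole reads (100% within 0.01 of a whole number after removal of a prior of 0.102 CPM), which gave the depth. 1 read was worth 0.0383 to 0.0767 CPM. These reads were used for depth alone.

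Computed here: limma 3.58.1 in R 4.3.3, with a mean-variance trend, was fitted to the log2 CPM of all 6 libraries with 1 mean per group (3 residual and 8.02 prior degrees of freedom). Genes needed a log2 CPM of at least 0 in at least 2 libraries, which removed 1023. P-values were two-sided and adjusted by Benjamini-Hochberg over 13765 genes. The script was tested on simulated data. The members and lists were chosen with earlier results of these data known. Genes given in full were called synthetases in order of p (up to 6 per compartment; and AARS1, called between guides), and the 2 per compartment with the largest p. For 2 members, results by gene are not reported here, though all counts include them. Of each list, up to 3 genes with the smallest p were named, and others where stated or as markers and scaffolds of the complex. Promoter windows came from RefSeq (GRCh38.p14) and exons from GENCODE 29. Of the 37 members, 21 share exon bases with another gene, 5 of them more than 10%. Alternatives were other filters, scalings, pseudocount, variance models, a replicate block, 1 knockout group, and each library left out.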

Additional observations from a re-analysis of the deposited data

Results flagged for a closer look

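The difference between the guides for AARS1 passed its own test. The log2 fold change of KO-2 against KO-1 was 0.30, with AARS1 below both controls in the 2 KO-1 libraries and above them in the 2 KO-2 libraries. KO-2 replicate 1, which stands apart on the second principal component, had 7.74 log2 CPM and KO-2 replicate 2 had 7.75. Without KO-2 replicate 1 the difference was 0.31 (adjusted p = 0.0018). The call was lost without control replicate 1 or 2 (adjusted p = 0.11 and 0.10), without KO-1 replicate 1 or 2 (0.35 and 0.41), without the mean-variance trend (0.23) and with a replicate block (0.054). A difference between guides cannot be told apart here from one between clones.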

How the results depend on the processing

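No alternative reversed the direction of a called synthetase, and VARS1, HARS1 and CARS2 were called under all 14 for the mean of both guides. Without the mean-variance trend the number of synthetases called was 6 for both guides, 7 in KO-1, 0 in KO-2 (7 at an unadjusted p below 0.05 by limma) and 0 between the guides (5 at that p). In the same order, 16.0%, 17.0%, 1.18% and 0.0073% of all genes were called without the trend. The authors' deposited table calls 4 in KO-2 and 1 between the guides. Treating all knockout libraries as 1 group gave 7 for both guides, beside 21.2% of all genes. With a replicate block, 10 were called for both guides and 0 between the guides (10 at an unadjusted p below 0.05 by limma, with AARS1 at an adjusted p of 0.054). The shares of all genes called with the block were 27.5% and 0.763%. Replicate differences correlated across genes at -0.05, 0.04 and -0.04 between groups, so the replicate numbers were not taken as pairing. Leaving out each library in turn gave 3 to 19 calls for both guides, 5 to 21 in KO-1, 1 to 10 in KO-2 and 0 to 12 between the guides; the lowest counts for both guides came without a control library, when 1 control carried the contrast and its spread was assumed to equal that of the other groups. The share of all genes called also changed with the library left out, as given above. With library medians set equal, 61.7% of all called genes were higher, and the median of all genes was 0.04. Without the trend, FARS2, MARS1, NARS2, QARS1 and WARS2 missed the threshold (adjusted p 0.061, 0.14, 0.061, 0.069 and 0.12). MARS1 and WARS2 also missed the threshold under the replicate block (adjusted p = 0.062 and 0.054). The fewest reads per library stood behind VARS2 (26 to 77) and SARS2 (57 to 119). VARS2 was not tested at a mean of at least 2 log2 CPM.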
